A study of Mus musculus with 4 samples.

Results

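Lymphocytes enter injured tissue along gradients of chemokines, and 8 genes of this system, 4 ligands and 4 receptors, were followed through the immune cells of the mouse spinal cord. The ligands were Cxcl9, Cxcl10, Cxcl16 and Ccl22, and the receptors were Cxcr3, Cxcr6, Ccr4 and Ccr7. They were picked by gene symbol, each had 1 row in the count matrices, and together they made up 8 of 31053 genes. Myeloid sources of the ligands and T, NK and B cells as carriers of the receptors were compared at sham, 3 and 14 days post injury (dpi). The cells were CD45+ cells sorted from the spinal cord of C57BL/6 mice and sequenced with the 10x 3′ assay, which counts unique molecular identifiers (UMIs), each standing for 1 captured RNA molecule. The groups were a sham library with the standard dissociation, a sham library dissociated with actinomycin D (ActD), and ActD libraries at 3 and 14 dpi after contusion injury of the cord. ActD blocks transcription, so RNA cannot be made while the tissue is taken apart. Each group was 1 library.

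Cxcl9 and Cxcl10 are ligands of Cxcr3, a receptor of activated T cells and NK cells, and both are classical targets of interferons. Cxcl16 is the ligand of Cxcr6 and is made as a membrane-bound protein that the proteases Adam10 and Adam17 can cut free, while Ccl22 attracts cells that carry Ccr4, regulatory T cells among them. Ccr7 leads naive T cells, B cells and mature dendritic cells (DCs) towards lymphoid tissue, where its ligands Ccl19 and Ccl21 are made.

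All 8 genes are annotated as protein coding. In mm10, Cxcl9 (ENSMUSG00000029417, chr5:92321347-92328079) and Cxcl10 (ENSMUSG00000034855, chr5:92346638-92348889) lie next to each other on the minus strand. Cxcl16 (ENSMUSG00000018920) is at chr11:70453983-70459984 and Ccr7 (ENSMUSG00000037944) at chr11:99144196-99155077, both on the minus strand. Ccl22 (ENSMUSG00000031779) is at chr8:94745590-94751699 and Cxcr6 (ENSMUSG00000048521) at chr9:123806475-123811760, both on the plus strand. Ccr4 (ENSMUSG00000047898) is at chr9:114490316-114504916 and Cxcr3 (ENSMUSG00000050232) at chrX:101731535-101734269, both on the minus strand.

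The promoters of Cxcl9 and Cxcl10 are shown because both genes are classical interferon targets and their levels by day are set beside those of other interferon-stimulated genes. The windows are the 250 bases before the start of each gene, 5′ to 3′ on the minus strand, from RefSeq on GRCm38.p6, the build of mm10, at chr5:92328080-92328329 for Cxcl9 and chr5:92348890-92349139 for Cxcl10. Capitals mark matches to 3 motifs searched on both strands, the interferon response element (ISRE, GAAANNGAAA), the STAT site (GAS, TTCNNNGAA) and the NF-κB site (by name).
Cxcl9: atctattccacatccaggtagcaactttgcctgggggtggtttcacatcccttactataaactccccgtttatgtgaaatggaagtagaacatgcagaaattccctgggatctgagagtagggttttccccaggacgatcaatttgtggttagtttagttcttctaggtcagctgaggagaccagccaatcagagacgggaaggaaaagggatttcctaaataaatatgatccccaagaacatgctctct
Cxcl10: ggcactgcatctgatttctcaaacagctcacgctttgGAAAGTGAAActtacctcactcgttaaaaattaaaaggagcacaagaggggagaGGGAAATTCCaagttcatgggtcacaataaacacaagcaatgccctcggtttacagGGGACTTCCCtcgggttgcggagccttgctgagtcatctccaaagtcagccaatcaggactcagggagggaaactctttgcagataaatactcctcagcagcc
The Cxcl10 window held 3 matches, an ISRE that began 213 bases before the start and NF-κB sites that began 159 and 103 bases before it. The Cxcl9 window held 0, which says only that these letters were not in it. Of 32851 promoters of the same length, 2.98% held the ISRE, 7.02% the GAS motif and 3.90% the NF-κB motif. RefSeq entries were matched for 6 of the 8 genes, and those of Ccl22, Cxcr3, Cxcr6 and Ccr4 held 0 matches.

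The 4 libraries held 27447471 to 129935880 UMIs in 2439 to 11631 cell barcodes, of which 2135 to 9078 cells were kept. Any pair of libraries shared 3 to 36 barcodes. Cells were grouped into classes by marker genes, and 13 of the classes were checked against their own markers. None of these was at 0 in every cell, but this check is weak. All 8 microglial markers were also above 0 in B cells and neutrophils of each ActD library. The markers found in at least 25% of cells were 7 of 12 in neutrophils at 3 dpi and 4 of 6 in injury macrophages at 14 dpi. In microglia they were 8 of 8 in each ActD library, and in neutrophils 12 of 12 in sham and at 14 dpi. Clusters were named within each library, so a class can hold different clusters by day. Levels are given as CPM, a gene's UMIs per 1000000 UMIs of the class, with 95% Poisson intervals, shares of cells with exact binomial intervals, and ratios as log2 ratios with exact intervals. With 1 library per condition, no test between conditions was possible, and all intervals cover counting error only. A gene was called different when the ratio was at least 2-fold and the pair of libraries held 20 UMIs or more. Where fewer cells of a class and less RNA per cell would give the same sum, they cannot be told apart. The median ratio of all genes was not 0 in some classes. In microglia it was −0.54 at 3 dpi over sham and −0.56 at 14 dpi over sham, in neutrophils 1.09 at 3 dpi over sham and −1.15 at 14 over 3 dpi, and member ratios are read against it.

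Cxcl10 differed widely between classes and days. In microglia, the resident macrophages of the cord, its level was 1.08 CPM (0.630 to 1.73) in the ActD sham library, 150 CPM (145 to 155) at 3 dpi and 72.1 CPM (69.8 to 74.5) at 14 dpi. The 3 dpi library was the highest and the sham library the lowest, and no interval overlapped another. The log2 ratio over sham was 7.12 (6.43 to 7.90) at 3 dpi and 6.06 (5.38 to 6.84) at 14 dpi, and at 14 over 3 dpi it was −1.05 (−1.12 to −0.99). All 3 passed 2-fold, as did 14.8% of genes that were higher at 3 dpi over sham, 6.65% that were higher at 14 dpi over sham and 15.2% that were lower at 14 over 3 dpi. The sham side of these ratios rested on 17 UMIs. A further 222 sham cells fell in clusters that were named microglia at 14 dpi but not in sham. Of these, 16 lay in a cluster led by interferon-stimulated genes, where 7 cells held 275 Cxcl10 UMIs and 1 cell held 210 of these. Only the cluster with 149 of the 222 cells was also named microglia at 3 dpi. With these sham cells counted as microglia, the log2 ratio was 3.17 at 3 dpi and 2.12 at 14 dpi over sham. The 3 dpi side of this ratio leaves out 212 and 43 cells of the other clusters, which were named injury macrophages on that day. Within each of the 4 clusters that were microglia on both injured days, Cxcl10 was higher at 3 dpi than in sham, by 5.11 to 8.80, and its log2 ratio at 14 over 3 dpi was −3.68 to −2.47. The summed CPM of 10 macrophage markers in the microglia was 50.7 in sham, 3121 at 3 dpi and 506 at 14 dpi, and that of 8 microglial markers 23184, 4095 and 9914, with every marker above 0 in each library. Their part in the Cxcl10 levels was not tested.

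The share of cells with a Cxcl10 UMI differed more between 3 and 14 dpi than the level did. At 3 dpi, 333 of 931 microglia had one (35.8%, 32.7 to 38.9), against 225 of 4246 at 14 dpi (5.30%, 4.64 to 6.02) and 9 of 1473 in sham (0.611%, 0.280 to 1.16). Median depth was 20003 UMIs per cell at 3 dpi, 10757.5 at 14 dpi and 9535 in sham, so cells were also thinned to 1000 UMIs each, which left 8.28% at 3 dpi, 1.75% at 14 dpi and 0.136% in sham. Many microglia carried the transcript at 3 dpi and few at 14 dpi. At 14 dpi, 64 of the 105 microglia of a single cluster held 2902 of the 3661 UMIs, and this cluster was led by Cxcl10, Ccl12, Ifit2 and other interferon-stimulated genes. Without it, the log2 ratio at 14 dpi over sham was 3.83. B cells, which should lack Cxcl10, had a UMI in 4.65% of cells at 3 dpi at a median depth of 2512 and in 2.06% at 14 dpi at a median depth of 3549.

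Other myeloid cells held Cxcl10 as well. In monocytes the level was 22.8 CPM (9.16 to 47.0) in sham, 625 CPM (552 to 705) at 3 dpi and 81.1 CPM (73.8 to 89.0) at 14 dpi. The 3 dpi value came from 265 UMIs in 13 of 66 cells. The sham and 3 dpi monocytes were a single cluster led by Ace, a gene of patrolling monocytes, and at 3 dpi also by interferon-stimulated genes. The 668 cells at 14 dpi joined 325 cells of that cluster to 343 of a cluster led by Vcan, whose 975 cells at 3 dpi had been named injury macrophages. The macrophage markers summed to 430, 5043 and 1878 CPM in the monocytes of the 3 libraries, with 7, 8 and 10 of the 10 above 0 and Lyve1 and Cd163 at 0 in sham and at 3 dpi. In neutrophils, the first leukocytes to reach an injury, it was 4.11 CPM in sham, 147 CPM (136 to 159) at 3 dpi and 9.07 CPM at 14 dpi. Both classes were highest at 3 dpi, with no overlap of the intervals of 3 and 14 dpi. The log2 ratio at 14 over 3 dpi was −2.95 (−3.17 to −2.72) in monocytes and −4.02 (−4.40 to −3.67) in neutrophils, the latter among 55.5% of neutrophil genes that were at least 2-fold lower. Within the Ace cluster it was −1.95 (−2.17 to −1.72), from 625 to 162 CPM. Neutrophils differed in depth, with a median of 2293 UMIs per cell at 3 dpi and 5083 at 14 dpi, and 11.5% of them at 3 dpi had a Cxcl10 UMI against 1.66% at 14 dpi (6.98% and 0.829% after thinning). In the macrophages that arrive with injury, the level was 33.0 CPM (31.5 to 34.5) at 3 dpi, with a UMI in 542 of 3798 cells, and 2.65 CPM (1.27 to 4.88) at 14 dpi. The class held 5 clusters at 3 dpi and only the cluster led by Gpnmb at 14 dpi. Within that cluster the level was 12.8 CPM at 3 dpi, which gave a log2 ratio of −2.27 (−3.34 to −1.39), while the Vcan cluster had 27.1 CPM at 3 dpi and 13.6 CPM at 14 dpi. Much of the 3 dpi sum lay in 43 cells of the cluster led by interferon-stimulated genes. They held 988 UMIs (1549 CPM), against 573 in the 2460 cells of the Gpnmb cluster. At 14 dpi the interferon-led cluster, then named microglia, had 2103 CPM, a log2 ratio of 0.44 (0.34 to 0.55).

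Border macrophages, which line the meninges and vessels, went the other way. They had 0 Cxcl10 UMIs in sham, 24.4 CPM (19.6 to 30.1) at 3 dpi and 130 CPM (110 to 154) at 14 dpi. Against a limit of 3 UMIs in these 84 sham cells, the level was at least 7.87-fold higher at 3 dpi and at least 42.0-fold higher at 14 dpi, although the latter came from 8 of 126 cells. In the clustering of the 2 shams alone, the class held 133 ActD cells and was not free of Cxcl10, as given below. The bounds therefore hold for the 84 cells only. The 3 dpi levels of border macrophages and of injury macrophages also lay below that of αβ T cells on that day, given below. In cDC2, a conventional DC type that presents antigen to CD4 T cells, the level was 14.2 CPM (9.21 to 21.0) at 3 dpi and 100 CPM (87.8 to 114) at 14 dpi. There, 5 cells held 95.2% of the 14 dpi UMIs. Microglia were 931 of the 8214 kept cells at 3 dpi and 4246 of the 9078 at 14 dpi. Injury macrophages were 3798 and neutrophils 1813 of the cells at 3 dpi, and monocytes 668 of those at 14 dpi. Of all Cxcl10 UMIs of kept cells, microglia held 49.2% at 3 dpi and 66.5% at 14 dpi, injury macrophages 30.8% and neutrophils 10.6% at 3 dpi, and monocytes 8.14% at 14 dpi. With each cell named on its own from its markers, the microglial share was 37.2% at 3 dpi and 24.6% at 14 dpi, so the order of the days then turned.

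**Figure D1:**
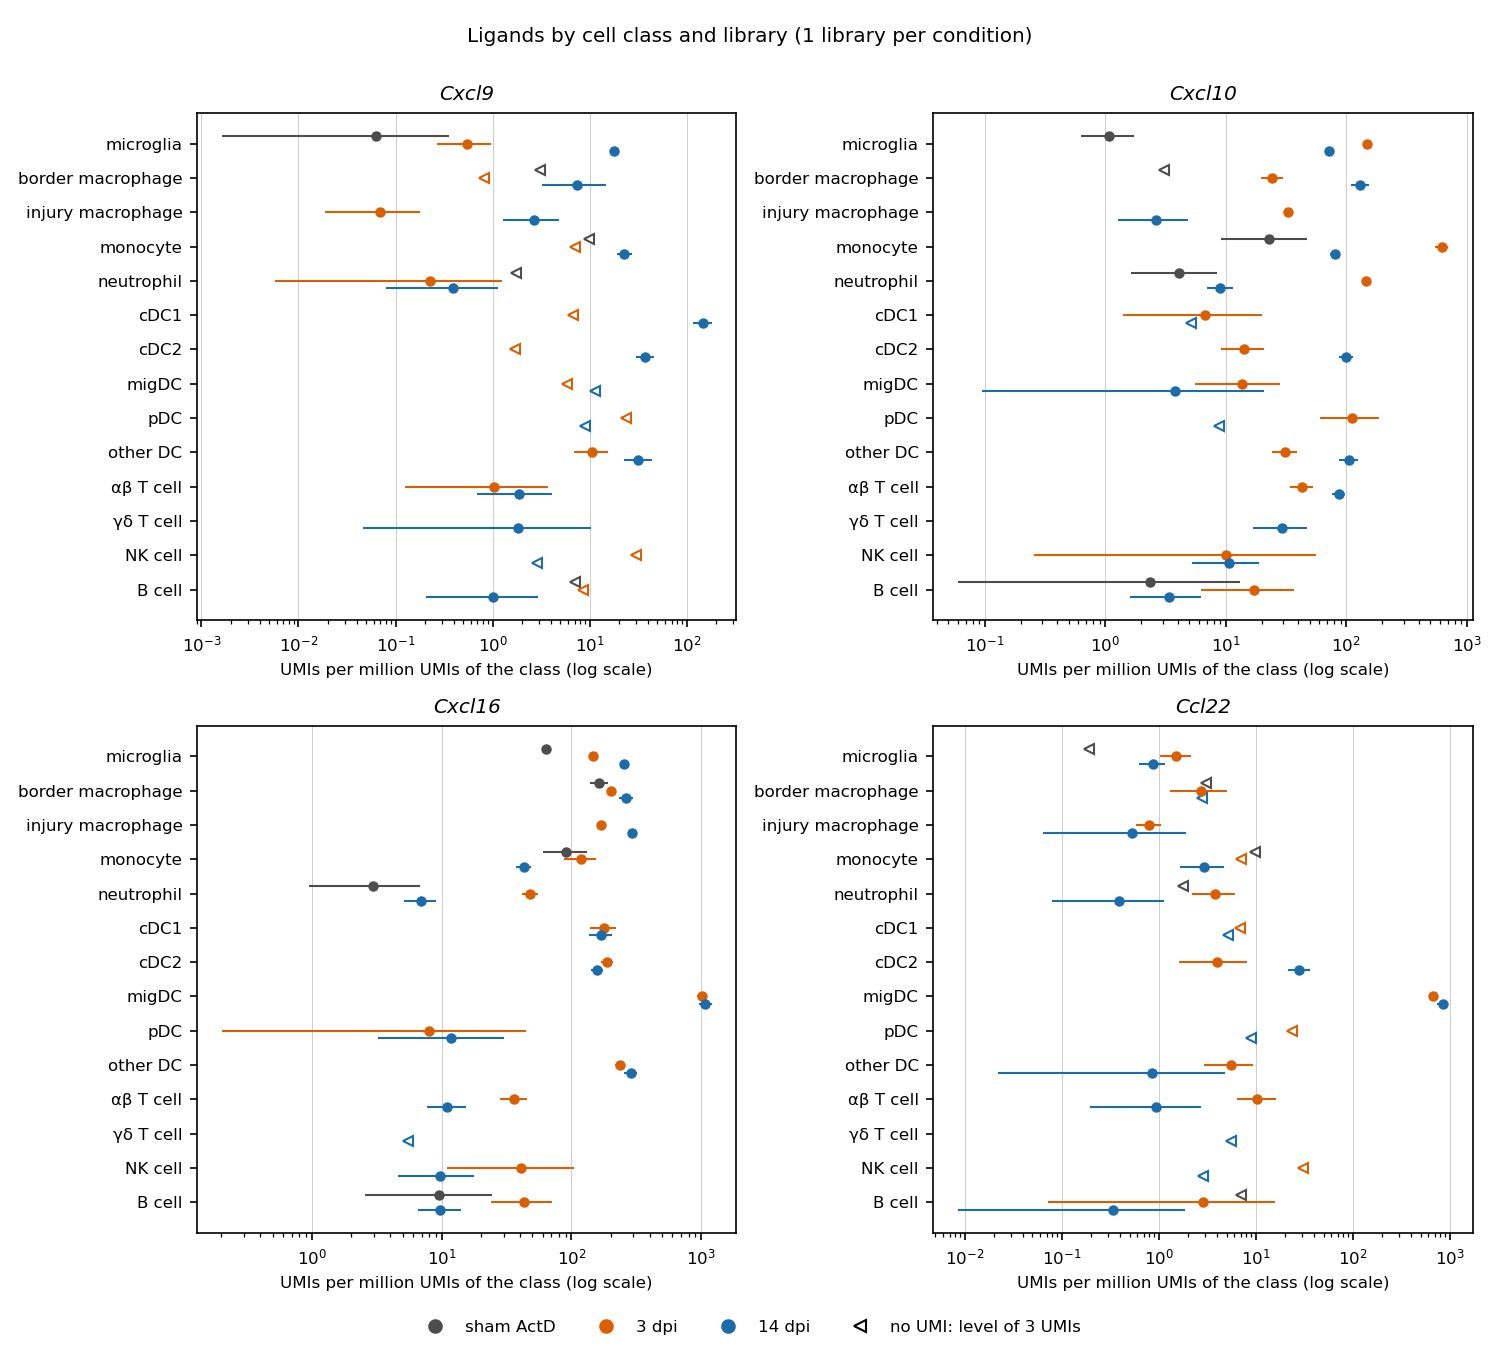
Levels of the 4 ligands in each cell class (rows) in the ActD sham, 3 dpi and 14 dpi libraries, in CPM on a log axis, with bars for 95% Poisson intervals and open triangles for classes without a UMI, placed at the level of 3 UMIs. Cxcl10 in microglia lay at 1.08, 150 and 72.1 CPM, Cxcl16 in microglia went from 64.1 CPM in sham to 253 CPM at 14 dpi, and Ccl22 was highest in migDC at 676 and 845 CPM. Microglia, monocytes and injury macrophages hold different clusters by day, and the sham microglia leave out 222 cells of clusters named microglia at 14 dpi.

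Cxcl9 was scarce at 3 dpi and present at 14 dpi. In microglia its level was 0.0636 CPM (1 UMI) in sham, 0.540 CPM (0.269 to 0.966) at 3 dpi and 18.0 CPM (16.8 to 19.2) at 14 dpi. Among cells named microglia, the 14 dpi library was the highest. Its log2 ratio over 3 dpi was 5.06 (4.21 to 6.06), with 11.6% of microglial genes at least 2-fold higher in that comparison. The sham value leaves out 16 sham cells of the interferon-led cluster, which counted as microglia at 14 dpi only. These held 102 Cxcl9 UMIs in 3 cells, 99 of them in 1 cell. Over all kept cells, sham lay between the injured libraries, with 6.29 CPM against 0.459 CPM (3 dpi) and 13.3 CPM (14 dpi). In microglia, the 14 dpi value came from 912 UMIs in 73 of 4246 cells (1.72%, 1.35 to 2.16), and 5 cells held 47.5% of them. Without the 5 top cells of each library, the log2 ratio at 14 over 3 dpi was 6.57. Only 7 microglia had Cxcl9 at 3 dpi, so this took out most of them. The higher ratio therefore cannot show whether the difference rests on few cells. Cxcl9 and Cxcl10 are neighbours in the genome, and after injury microglia with Cxcl9 had Cxcl10 more often than the rest. At 14 dpi, 18 of the 73 microglia with Cxcl9 also had Cxcl10 (24.7%), against 4.96% of the rest. At 3 dpi, all 7 microglia with Cxcl9 had Cxcl10, against 35.3% of the rest. After thinning, the shares at 14 dpi were 13.6% and 1.68%, and at 3 dpi 0 microglia had Cxcl9.

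The level of Cxcl9 at 14 dpi was 147 CPM (118 to 182) in cDC1, the DC type that presents antigen to CD8 T cells, but this came from 85 UMIs in 3 of 51 cells. In cDC2 it was 37.7 CPM (86 UMIs in 3 of 244 cells), in monocytes 22.8 CPM (126 UMIs in 13 of 668 cells) and in other DCs 31.9 CPM (37 UMIs in 5 of 107 cells). None of the first 3 of these classes had a Cxcl9 UMI at 3 dpi. Each of these values rested on very few cells. All 3 cDC2 with Cxcl9 also had Cxcl10, as did 5 of the 13 monocytes. In sham, 161 of 162 UMIs lay in cells without a class name, 99 of them in 1 cell of the cluster led by interferon-stimulated genes and 58 in 1 cell of a cluster named DC after injury. Microglia, 4246 of the 9078 kept cells at 14 dpi, held 71.2% of the Cxcl9 UMIs of that day (68.7 to 73.7).

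Genes that answer interferon did not follow Cxcl10 by day. Of 14 interferon-stimulated genes, 0 were at least 2-fold higher and 12 at least 2-fold lower in microglia at 3 dpi over sham, with a median log2 ratio of −2.21 against −0.54 over all genes, of which 33.5% were at least 2-fold lower. Rtp4 fell by 3.50 on the log2 scale and the antiviral gene Ifit3 by 3.32, while Cxcl10 was higher in the same cells. Of 13 interferon signalling genes, 11 were lower and 0 higher, among them the receptor subunit Ifngr1 (−2.61) and the transcription factor Irf7 (−2.01). At 14 over 3 dpi, 12 of the 14 interferon-stimulated genes were higher and 0 lower, with a median of 2.85 against 0.01 and 11.6% of all genes higher, and Ifit3 (3.96) and Iigp1 (4.45) were among them. The cluster led by interferon-stimulated genes counted as microglia at 14 dpi only, since its 43 cells at 3 dpi were named injury macrophages and its 16 sham cells were not named. Without it, 11 of 14 were higher with a median of 2.38, and with it counted as microglia in each library 9 of 14 with a median of 1.64, both with 0 lower. Signalling genes were higher in 8 of 14 cases. At 3 dpi over sham, with that cluster counted as microglia in each library, 1 of the 14 interferon-stimulated genes was higher and 10 lower. The median was then −1.31. At 14 dpi over sham, 5 of the 14 interferon-stimulated genes were higher and 0 lower, or 2 higher and 2 lower without that cluster. With it counted in each library, 2 were higher and 1 lower. Of all genes, 6.65% were higher and 21.4% lower, or 6.43% and 21.4% without that cluster. Cxcl9 thus stood with most of this list at 14 over 3 dpi, and Cxcl10 (−1.05) did not. The matrices of the standard sham and 3 dpi libraries carry software version 3.0.1 and those of the ActD sham and 14 dpi libraries version 3.1.0. In microglia most interferon-stimulated genes were lower at 3 dpi than in the ActD sham and at 14 dpi, and Cxcl10 was higher. Version and condition cannot be told apart in these comparisons. The same limit holds for every member ratio at 3 dpi over the ActD sham or at 14 over 3 dpi. Other classes were not all alike. In αβ T cells most of the list was also higher at 14 over 3 dpi, as given below. In monocytes at 14 over 3 dpi 2 of the 14 genes were higher and 3 lower, against 19.3% and 7.75% of all genes. In B cells at 14 dpi over sham, 14 of 14 were lower with a median of −2.91. Both classes held different cells by day. The monocytes of 14 dpi included the Vcan cluster, and 153 of the 437 B cells of 14 dpi formed a group with 0 cells in sham. Of all B cell genes, 11.3% were lower at 14 dpi over sham.

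Dissociation also moved with Cxcl10. The 2 sham libraries were grouped on their own, and there microglia of the standard protocol held 191 CPM (185 to 197) of Cxcl10, in 590 of 2499 cells, against 18.2 CPM (16.2 to 20.4) with ActD, in 17 of 1501 cells. The log2 ratio was 3.39 (3.22 to 3.57), with 6.2% of genes at least 2-fold higher, and without the 5 top cells of each library it was 6.69, since 1 ActD cell held 210 of the 289 UMIs. The standard sham library thus had the higher level in uninjured microglia, and the same held in border macrophages (105 and 5.30 CPM), monocytes (75.5 and 13.9 CPM) and neutrophils (19.7 and 1.23 CPM). Cxcl16 was higher by 0.85 (0.74 to 0.95) in microglia of the standard protocol, where the median of all genes was −0.58. Of the 14 interferon-stimulated genes, 10 were lower and 1 higher in these cells, where 25.2% of all genes were at least 2-fold lower, and Irf1, an early interferon target, was higher by 2.25. The 2 shams differ in protocol and in software version, and these cannot be told apart.

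Cxcl16 was the broadest of the ligands. In microglia its level was 64.1 CPM (60.2 to 68.2) in sham, 146 CPM (141 to 152) at 3 dpi and 253 CPM (249 to 258) at 14 dpi. Each library lay above the one before, and no intervals overlapped. The log2 ratio over sham was 1.19 (1.09 to 1.30) at 3 dpi and 1.98 (1.89 to 2.08) at 14 dpi, where the median of all genes was negative. With the 222 sham cells counted as microglia, these ratios were 0.85 and 1.64, so the 3 dpi ratio then missed 2-fold. As for Cxcl10, the 3 dpi side leaves out cells of these clusters that were named injury macrophages. Within single clusters, the ratio at 3 dpi over sham was 1.19 and 1.32 in the 2 clusters led by P2ry12, Siglech and Sparc, 0.04 in a cluster led by Mki67 and other cell cycle genes and −0.48 in a cluster led by Lpl, and at 14 dpi over sham it was 1.28, 1.69, 0.72 and 0.37 in the same order. The Lpl cluster was not named microglia in sham, where it had 214 CPM. A UMI was found in 39.3% of sham microglia, 76.4% at 3 dpi and 76.8% at 14 dpi, or 5.77%, 14.1% and 20.4% after thinning. In border macrophages the levels were 164 CPM (139 to 191), 202 CPM (188 to 217) and 263 CPM (233 to 295) in the same order. Injury macrophages had 169 CPM (166 to 173) at 3 dpi and 290 CPM (273 to 308) at 14 dpi, a log2 ratio of 0.78 (0.69 to 0.87), or 0.69 (0.60 to 0.78) within the Gpnmb cluster. Monocytes differed, with 91.2 CPM (60.6 to 132) in sham, 118 CPM (87.6 to 156) at 3 dpi and 42.9 CPM (37.6 to 48.7) at 14 dpi. Within the Ace cluster the 14 dpi level was 49.0 CPM (40.7 to 58.5), and the Vcan cluster went from 127 to 37.8 CPM between the injured days. The proteases that release Cxcl16 were not higher in microglia after injury. The log2 ratios of Adam10 and Adam17 were −1.02 and −0.94 at 3 dpi over sham, and −0.91 and −0.22 at 14 dpi over sham.

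DCs carried Cxcl16 on both injured days. In migDC, DCs that have matured and move to lymph nodes, the level was 1007 CPM (921 to 1098) at 3 dpi and 1074 CPM (953 to 1207) at 14 dpi, with a UMI in 82 of 84 and 35 of 36 cells. The 2 days overlapped, with a log2 ratio of 0.09 (−0.12 to 0.31). No other class compared reached this level. The cDC1 had 177 and 168 CPM, cDC2 187 and 157 CPM and other DCs 237 and 285 CPM at 3 and 14 dpi. Classes that should lack Cxcl16 were not free of it at 3 dpi, where αβ T cells had 35.8 CPM (27.9 to 45.4), B cells 42.8 CPM (23.9 to 70.6) and neutrophils 48.0 CPM (41.8 to 54.8). At 14 dpi these levels were 11 CPM (7.66 to 15.3), 9.77 CPM and 6.87 CPM. Macrophage RNA moved with them. The 10 macrophage markers, all of them above 0 in αβ T cells at 3 dpi and 9 of them (all but Cbr2) at 14 dpi, summed to 1530 CPM at 3 dpi and 30.8 CPM at 14 dpi in αβ T cells, to 1894 and 21.9 CPM in B cells, to 2370 and 168 CPM in neutrophils and to 1089 and 52.8 CPM in migDC. The part of this RNA in low Cxcl16 levels at 3 dpi was not tested. Injury macrophages, 3798 of 8214 kept cells, held 63.6% of Cxcl16 UMIs at 3 dpi. Microglia, 4246 of 9078 kept cells, held 81.1% at 14 dpi.

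**Figure D2:**
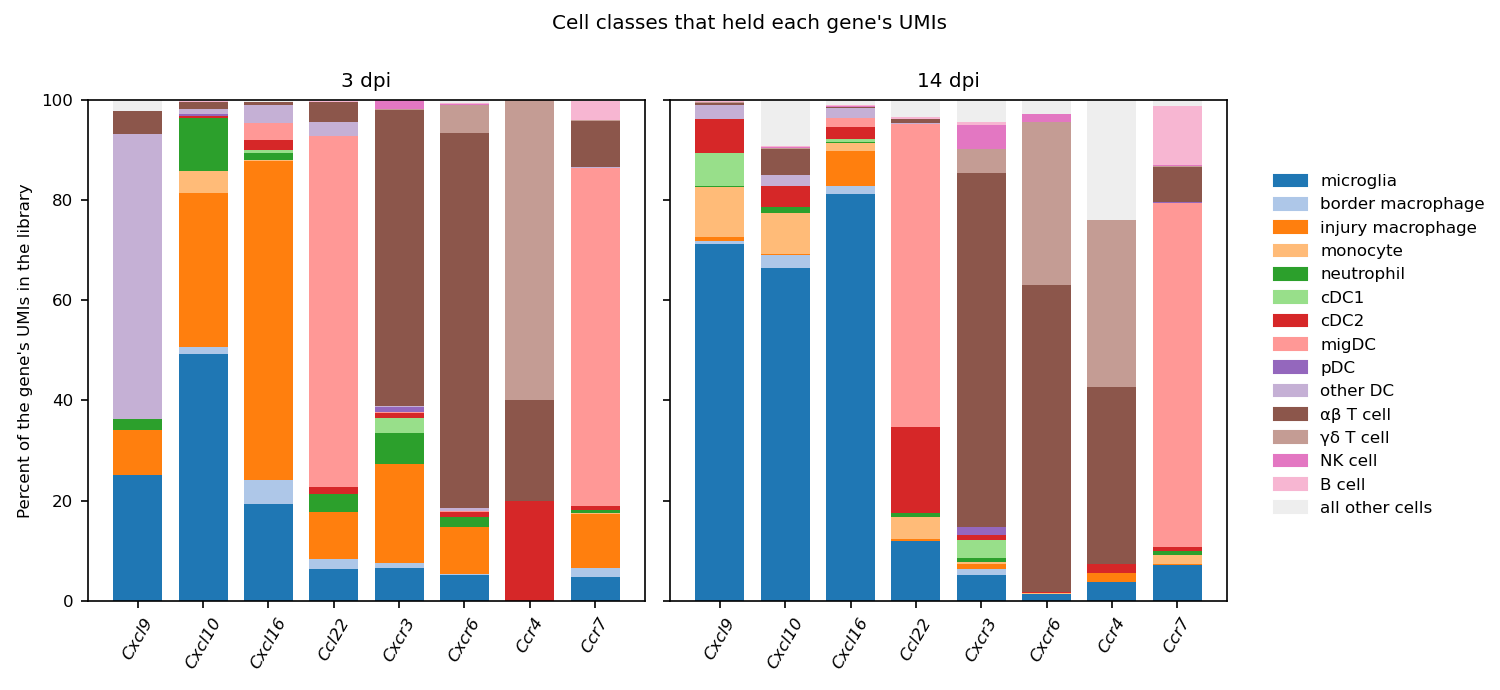
Share of each ligand's and receptor's UMIs held by each cell class (colours) in the 3 dpi and 14 dpi libraries, as percent of the UMIs of all kept cells. Microglia held 66.5% of Cxcl10 and 81.1% of Cxcl16 at 14 dpi, migDC held 70.2% of Ccl22 at 3 dpi, and αβ T cells held 74.8% of Cxcr6 at 3 dpi. Classes differ in size by day, with microglia 931 of 8214 kept cells at 3 dpi and 4246 of 9078 at 14 dpi.

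Ccl22 was a transcript of migDC. These cells made up 1.02% of kept cells at 3 dpi and 0.397% at 14 dpi and held 70.2% (65.9 to 74.2) and 60.4% (55.2 to 65.4) of the Ccl22 UMIs. The level in them was 676 CPM (607 to 752) at 3 dpi, in 43 of 84 cells, and 845 CPM (738 to 963) at 14 dpi, in 21 of 36 cells. Their log2 ratio was 0.32 (0.07 to 0.57) but −0.77 without the 5 top cells of each library, since 5 cells held 72.3% of the 14 dpi UMIs. The direction between the days therefore rests on 5 cells. In this comparison 11% of migDC genes were at least 2-fold higher, and no member was. The cDC2 had 3.99 CPM at 3 dpi and 28.1 CPM (64 UMIs in 9 of 244 cells) at 14 dpi. Ccl17, which shares the receptor Ccr4 with Ccl22, was lower in migDC at 14 over 3 dpi, with a log2 ratio of −2.74 (326 to 49.0 CPM), while the chemokine Ccl5 was higher by 2.13. In sham, all 15 Ccl22 UMIs lay in cells without a class name, 10 of them in 1 cell of a cluster named DC after injury. A class needed at least 20 cells in a library, so a few migDC in sham could not have been named.

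migDC were also the cells with the most Ccr7. The level was 1894 CPM (1776 to 2017) at 3 dpi, in 74 of 84 cells, and 2677 CPM (2483 to 2881) at 14 dpi, in all 36 cells, a log2 ratio of 0.50 (0.36 to 0.64). Among all DCs, 70.0% of the cells with Ccl22 at 3 dpi and 77.4% at 14 dpi also had Ccr7, against 8.75% and 4.44% of the rest. The ligand of Ccr4 and the receptor for lymphoid tissue were thus in the same cells. Neither gene was among the markers used to name the class, but cells were clustered on variable genes of all kinds, so such differences between classes are descriptions.

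B cells and T cells held Ccr7 at lower levels. B cells had 111 CPM (81.7 to 148) in sham, 157 CPM (118 to 204) at 3 dpi and 40.8 CPM (33.8 to 48.7) at 14 dpi. Sham and 3 dpi overlapped, and 14 dpi lay below both. The log2 ratio at 14 over 3 dpi was −1.94 (−2.42 to −1.46), with 12.3% of B cell genes at least 2-fold lower and a median of 0.29 over all genes. At 14 dpi, 153 of the 437 B cells formed a group with 24.3 CPM that held 2054948 of the UMIs of all B cells, and the other 3 groups lay at 73.2, 78.0 and 83.0 CPM. The group of 153 cells was led by Pclaf, Mki67 and other cell cycle genes and had 0 cells at 3 dpi. Among the B cell clusters of 14 dpi, 1 of 202 cells had Igll1 and Vpreb1, markers of pro-B or pre-B cells, among its leading genes. The B cell class thus held different cells by day. Mki67, a marker of cycling cells, was higher in B cells at 14 over 3 dpi by 5.09, and S1pr1 (−2.35), which serves recirculation, was lower. The part of the group of 153 cells in these ratios was not tested.

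In αβ T cells, Ccr7 was 68.6 CPM (57.4 to 81.3) at 3 dpi and 22.6 CPM (17.7 to 28.5) at 14 dpi, a log2 ratio of −1.60 (−2.03 to −1.17), with 6.98% of genes at least 2-fold lower. A UMI was found in 61 of 490 cells (12.4%) and 40 of 583 cells (6.86%), against 0.441% and 0.580% of neutrophils, or 6.53% and 1.89% against 0.221% and 0.0828% after thinning. At 3 dpi, 48 of the 92 cells of 1 group of αβ T cells had Ccr7, at 291 CPM, and this group was led by Tcf7 and Lef1, genes of naive T cells. The other αβ T cells of that day had 26.8 CPM. Ccr7 and the receptors for inflamed tissue were mostly in different cells. At 3 dpi, 14.8% of αβ T cells with Ccr7 had Cxcr6, against 53.6% of those without, and 18.0% had Cxcr3, against 44.1%. At 14 dpi, 37.5% of those with Ccr7 had Cxcr6, against 61.9%.

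**Figure D3:**
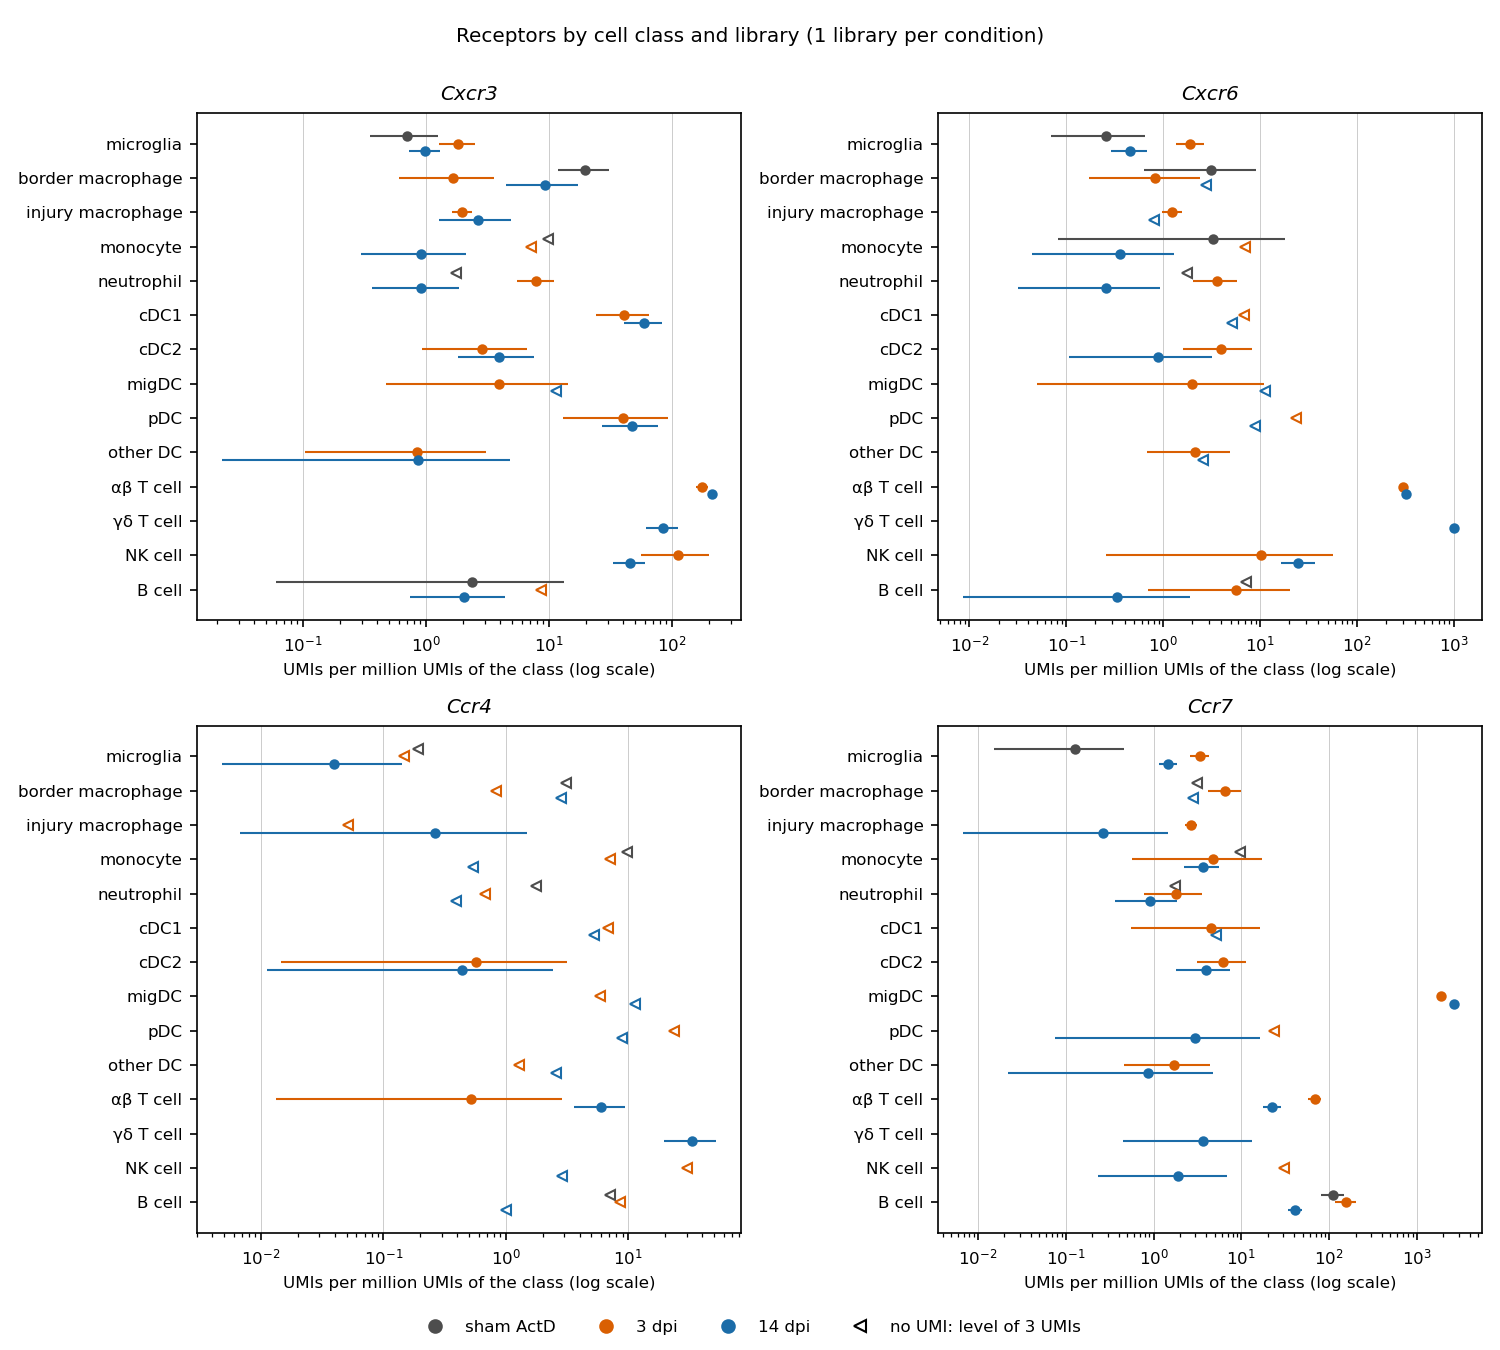
Levels of the 4 receptors in each cell class (rows) in the ActD sham, 3 dpi and 14 dpi libraries, in CPM on a log axis, with bars for 95% Poisson intervals and open triangles for classes without a UMI, placed at the level of 3 UMIs. Cxcr6 was highest in γδ T cells at 1003 CPM, Cxcr3 in αβ T cells at 176 and 213 CPM, and Ccr7 in migDC at 1894 and 2677 CPM.

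Cxcr3 was highest in αβ T cells. Its level was 176 CPM (158 to 196) at 3 dpi and 213 CPM (197 to 229) at 14 dpi. The intervals did not overlap, and the log2 ratio was 0.27 (0.08 to 0.47), against a median of 0.14 over all genes. A UMI was found in 40.8% (36.4 to 45.3) and 59.3% (55.2 to 63.4) of cells at median depths of 3639 and 5321, or 16.1% and 19.6% after thinning. In neutrophils, which should lack it, the shares were 1.82% and 0.580%, or 0.775% and 0.331% after thinning. In γδ T cells at 14 dpi, the level was 84.7 CPM (62.0 to 113), below that of αβ T cells.

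NK cells, the other lymphocytes that use Cxcr3, were few at 3 dpi. Their level was 112 CPM (55.7 to 200) from 11 UMIs in 7 of 30 cells at 3 dpi and 45.2 CPM (33.2 to 60.1) from 47 UMIs in 33 of 197 cells at 14 dpi. The log2 ratio was −1.30 (−2.27 to −0.21), with 7.86% of NK cell genes at least 2-fold lower, but without the 5 top cells of each library it was 0.16, so no direction can be read. Cells with UMIs of Itgam and Klrb1c had been removed, as the study did, and mature NK cells can carry both. Cxcr3 was also found in cDC1 at 40.8 CPM (24.2 to 64.5) and 59.0 CPM (40.8 to 82.4), and in plasmacytoid DCs, the main makers of type I interferon, at 39.7 CPM (12.9 to 92.7) and 47.4 CPM (27.1 to 76.9). The days overlapped in both. Border macrophages had 19.7 CPM (11.8 to 30.7) in sham, in 15 of 84 cells, 1.65 CPM (0.604 to 3.58) at 3 dpi and 9.31 CPM (4.47 to 17.1) at 14 dpi.

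Cxcr6 was the receptor with the highest level in T cells. In αβ T cells it was 301 CPM (277 to 326) at 3 dpi and 323 CPM (304 to 344) at 14 dpi, which overlapped, with a log2 ratio of 0.10 (−0.04 to 0.25). γδ T cells, which recognise antigen without classical presentation, had 1003 CPM (921 to 1091) at 14 dpi, in 108 of 113 cells, and at 3 dpi 44 UMIs in 13 of 16 cells. αβ T cells held 74.8% of the Cxcr6 UMIs at 3 dpi and 61.4% at 14 dpi, and γδ T cells 32.5% at 14 dpi. NK cells had 24.99 CPM (16.3 to 36.6) at 14 dpi, and microglia and injury macrophages at most 1.91 CPM. After thinning, 60.2% of γδ T cells and 24.5% of αβ T cells at 14 dpi had a UMI, against 4.06% of NK cells and 0% of microglia.

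T cells were then split by the coreceptors Cd4, of helper and regulatory cells, and Cd8a or Cd8b1, of cytotoxic cells. This covered all T cells other than γδ, 493 at 3 dpi and 635 at 14 dpi, a group led by Foxp3 included, and cells with UMIs of both kinds or of neither were set aside. In the Cd8 cells (146 and 258), Cxcr6 was 175 CPM (142 to 212) at 3 dpi and 381 CPM (351 to 414) at 14 dpi, a log2 ratio of 1.13 (0.82 to 1.45). Cxcr3 was 107 CPM (81.5 to 137) and 203 CPM (181 to 227), a ratio of 0.93 (0.53 to 1.35), and Ccr7 was 96.1 and 21.2 CPM, a ratio of −2.18 (−2.85 to −1.52). In Cd8 cells Cxcr6 thus passed 2-fold as higher and Ccr7 as lower at 14 dpi, and Cxcr3 did not reach 2-fold. In the Cd4 cells (204 and 209), Cxcr6 was 393 CPM (352 to 438) and 272 CPM (242 to 305), a ratio of −0.53 (−0.76 to −0.30). Cxcr3 in them was 211 CPM (181 to 244) and 232 CPM (205 to 263), and Ccr7 was 31.0 and 26.9 CPM, and the days overlapped for both. Cd8 cells lay below Cd4 cells in Cxcr6 at 3 dpi (−1.17, −1.51 to −0.84) and above them at 14 dpi (0.49, 0.28 to 0.69). The near equal levels of Cxcr6 over all αβ T cells thus hid opposite ratios in the 2 kinds of cells.

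**Figure D4:**
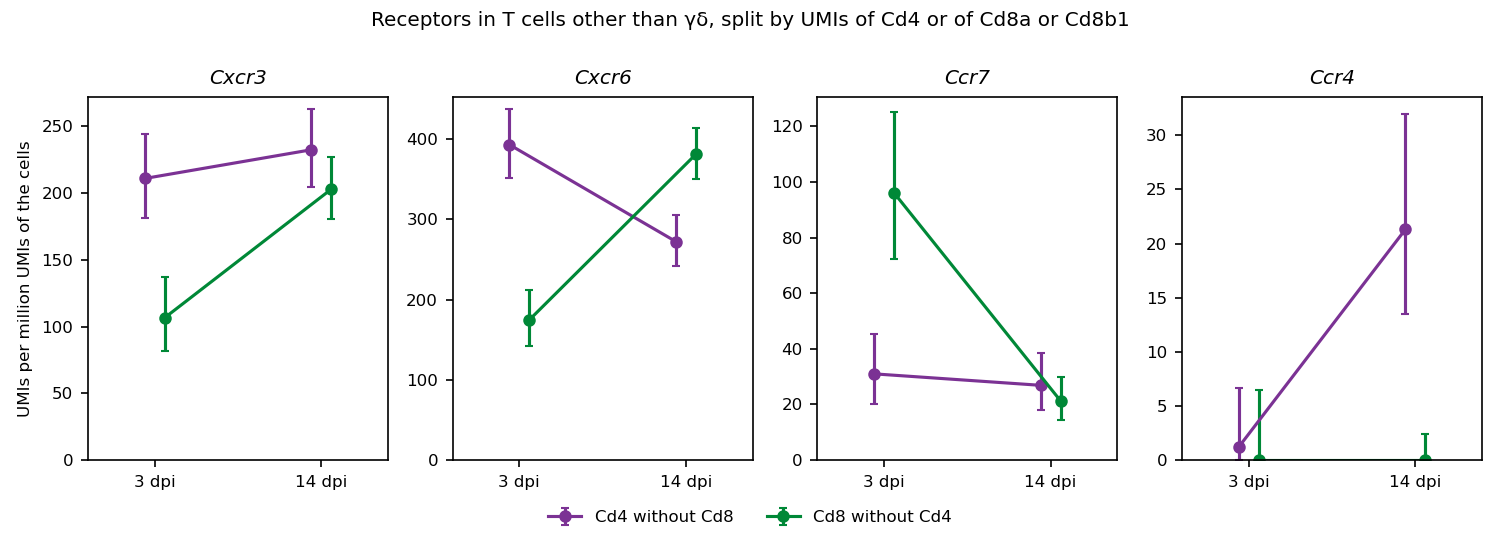
Levels of Cxcr3, Cxcr6, Ccr7 and Ccr4 at 3 and 14 dpi in T cells other than γδ T cells, split into cells with UMIs of Cd4 and none of Cd8a or Cd8b1 (purple) and the reverse (green), in CPM with 95% Poisson intervals. The 3 and 14 dpi levels of Cxcr6 were 175 and 381 CPM in Cd8 cells, against 393 and 272 CPM in Cd4 cells.

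Ccr4 was rare. It had 5 UMIs in kept cells at 3 dpi and 54 at 14 dpi. At 14 dpi, 19 of these lay in 17 of 583 αβ T cells, 18 in 13 of 113 γδ T cells (33.1 CPM, 19.6 to 52.4) and 13 in 6 cells of a lymphocyte group led by Foxp3, the factor of regulatory T cells. Among T cells other than γδ, the 29 cells with Foxp3 had 85.3 CPM and the 606 without it 6.06 CPM, a log2 ratio of 3.81 (2.65 to 4.92), while that of Cxcr6 was −2.48 (56.9 and 317 CPM). The values with Foxp3 rested on 12 Ccr4 UMIs in 5 cells, 1 of which held 5, and on 8 Cxcr6 UMIs in 5 cells. The Cd4 cells had 1 UMI of Ccr4 at 3 dpi and 23 at 14 dpi. The 258 Cd8 cells at 14 dpi had 0, which allows up to 1.99 CPM. In γδ T cells, 12 of the 13 cells with Ccr4 had Cxcr6 and 0 had Cxcr3. Of all 113 γδ T cells, 27 had both Cxcr3 and Cxcr6, 81 Cxcr6 without Cxcr3 and 5 neither. Most γδ T cells thus had Cxcr6 in any case, and 13 cells are too few to read the absence of Cxcr3.

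Genes around the members in αβ T cells followed the interferon list. At 14 over 3 dpi, 13 of 14 interferon-stimulated genes were at least 2-fold higher and 0 lower, with a median of 1.83, where 6.49% of all genes were higher. Cxcl10 itself was higher by 1.01 (0.65 to 1.39), from 43.1 to 87.1 CPM, and 28 of the 96 cells of a group led by Ifit genes held 260 of its 277 UMIs at 14 dpi. Of the lymphocyte state genes, 2 of 15 were higher, Eomes (2.72), a factor of cytotoxic cells, and Itgae (1.69), an integrin of tissue-resident T cells, and 1 was lower, Icos (−1.11), a costimulatory receptor. The chemokine Xcl1, which attracts cDC1, was higher by 5.37. Of the other chemokine receptors, 0 of 4 tested were called in either direction, among them Cxcr4 (0.36).

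Beside the members, other lymphocyte chemokines were measured in microglia. At 14 dpi over sham, 3 of 5 tested were higher and 0 lower, where 6.65% of all genes were higher and 21.4% lower. Cxcl13, the ligand of the B cell receptor Cxcr5, was higher by 6.85 (3 UMIs in sham and 1116 at 14 dpi), and at 14 dpi B cells and neutrophils had 0 and 3 UMIs of it. Ccl5 was higher by 3.77 (10.04 and 137 CPM), against 13.1 CPM in B cells and 18.3 CPM in neutrophils at 14 dpi. αβ T cells and NK cells held far more Ccl5 on that day, at 4347 and 4909 CPM. The third, Xcl1, lay at 1.12 CPM in microglia at 14 dpi, against 2.69 CPM (1.16 to 5.31) in B cells and 0.777 CPM (0.285 to 1.69) in neutrophils, and is read as background. At 3 dpi over sham, 1 of 3 was higher, Ccl5 (1.66), and 1 lower, Ccl25 (−1.54), where 14.8% of all genes were higher and 33.5% lower, but Ccl5 in microglia (31.7 CPM) was then below its level in neutrophils (39.0 CPM) and B cells (97.0 CPM).

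**Figure D5:**
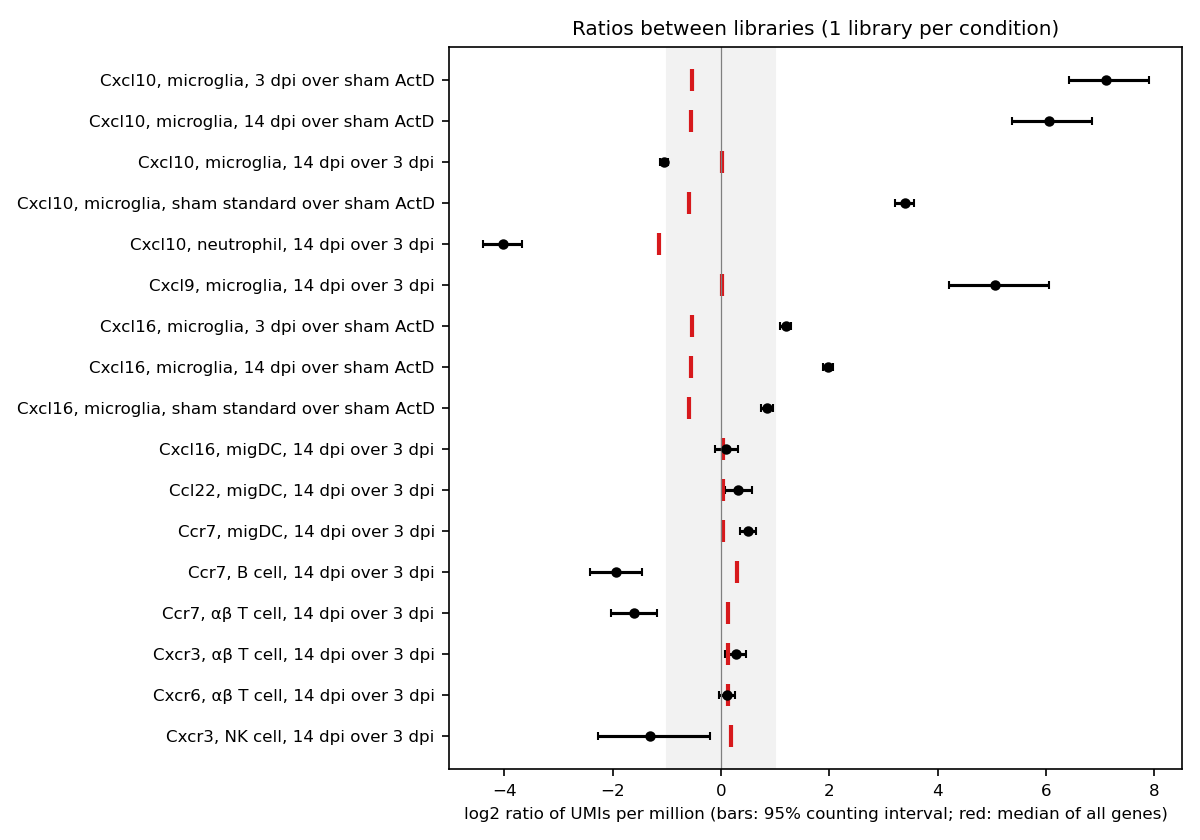
Log2 ratios of member levels between libraries (points) with 95% exact intervals (bars), the median ratio of all genes in the same comparison (red marks), and the range under 2-fold (shaded). Cxcl10 in microglia lay at 7.12 and 6.06 over sham, Ccr7 at −1.94 in B cells and −1.60 in αβ T cells, and Cxcr6 in αβ T cells at 0.10. The microglia and B cell classes held different cells by day. With 222 further sham cells counted as microglia, the Cxcl10 ratios over sham were much lower, as given in the text.

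The genes most like each member were found by correlating log2(CPM + 1) over 30 sums of a class in a library, among 11973 genes. The sums share libraries and class sizes, so the values are descriptions. Cxcr6 was most like the T cell receptor parts Cd3g (0.97) and Cd3e (0.96) and the T cell factor Bcl11b (0.97), and Cxcr3 like Cd226 (0.84), Ctla4 (0.83) and Trac (0.83). Ccl22 was most like Ccl17 (0.80), Map3k14 (0.75) and Cacnb3 (0.72), and Ccr7 like Foxp4 (0.80), Tmem123 (0.78) and Insl6 (0.75). Cxcl16 was most like Sh3pxd2b (0.89), Slc7a7 (0.87) and Tmem106a (0.87). Cxcl9 was most like Clec9a (0.70), Ifi205 (0.69) and Xcr1 (0.68), and Cxcl10 like Gm15283 (0.76), Hif1a (0.68) and Gch1 (0.66). Ccr4, with 56 UMIs in these sums, was most like Tcrg-C1 (0.88), Tcrg-C4 (0.87) and Tnfrsf25 (0.86). Clec9a, Xcr1, Cacnb3, Tmem123, Cd3g, Cd3e, Trac and Tcrg-C1 were also markers used to name classes.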

How the data were processed

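CD45+ cells of the spinal cord were measured in 4 libraries, 1 per condition. The values deposited by the authors were raw UMI counts of genes in barcodes, 1 matrix for each library, not normalized. The submitters' processing notes name Cell Ranger and mm10, and the matrix headers give software version 3.0.1 (standard sham, 3 dpi) or 3.1.0 (ActD sham, 14 dpi). Of 31053 identifiers, 30934 were found in GENCODE M21.

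Cells needed 600 or more genes and no more than 10% mitochondrial UMIs, and cells with Itgam and a lymphoid marker such as Cd3e or Klrb1c were removed, as in the study. Doublets were removed with the Scrublet method in scanpy 1.11.5 at 0.8% per 1000 cells (291 cells in the standard sham, 42 in the ActD sham, 774 at 3 dpi and 931 at 14 dpi). The 3 ActD libraries were integrated and clustered with Seurat 5.3.0 (2000 features, 50 dimensions, resolution 0.6) in R 4.3.3, and the 2 shams on their own. A cluster was named within each library from its marker genes, with at least 20 cells and at least 3 markers in at least 25% of cells, and lymphocytes and DCs were clustered again. UMIs were summed per class and library. Exact intervals came from scipy 1.17.1, and edgeR 4.0.16 gave TMM factors for an alternative only. Recovery of known ratios was tested on simulated data.

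All 8 members are named, with the 3 genes most correlated with each, and, of the pathway lists, the 3 largest and 3 smallest ratios of a list where the pair held 20 UMIs or more. The members and lists were chosen with earlier results of these data known. Alternatives covered cell filters, doublets, integration, resolution, naming of each cell, scaling, thinning and the UMI minimum. Sequencing reads and the other experiments of the study were not used here, and some genes of the lists are not reported here.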

Additional observations from a re-analysis of the deposited data

How the results depend on the processing

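No paired analysis was possible because each condition was 1 library. Of 159 alternative values for 35 results, 93 stayed within the counting interval (1.5 times for a share of genes), 65 moved further and 1, which had passed 2-fold, changed sign. Of the others, 3 ratios under 2-fold also changed sign (Ccl22 in migDC and Cxcr6 in αβ T cells under 2 settings). Values below are log2 ratios unless a percent is given, and a value without a comparison for microglia is over the ActD sham.

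With 1000 genes and 5% mitochondrial UMIs as limits, Cxcl10 in microglia was 3.63 at 3 dpi and 1.998 at 14 dpi, Cxcl16 at 3 dpi 1.31, Cxcr6 in αβ T cells at 14 over 3 dpi −0.065, and the migDC share of Ccl22 at 14 dpi 73.0%. With doublets and Itgam cells with a lymphoid marker kept, Cxcl10 was 2.92 and 2.16, Cxcr6 −0.074 and Ccr7 in migDC 0.11, the migDC share of Ccl22 was 48.3% at 3 dpi and 66.2% at 14 dpi, and the microglial share of Cxcl10 was 55.3% and 62.2%. With each cell named on its own, Cxcl10 was 3.55 and 1.16, Cxcl16 0.85 and 1.58 and Cxcr6, γδ T cells included, 0.30, and the microglial share of Cxcl10 was 37.2% and 24.6%. Merged without integration, Cxcl10 was 3.05 and 3.03, Cxcl16 0.95 and 1.48 and Cxcr6 0.26, with Cxcl10 shares of 51.4% and 58.7%. At resolution 1.2, Cxcl16 was 0.91 and 1.69 and Ccr7 in αβ T cells −2.04. TMM factors gave Cxcl16 as 1.502 and 2.42 and Cxcl10 between the shams as 3.95. The mean over cells of each cell's CPM gave Cxcl10 between the shams as 3.96 and Ccr7 in B cells as −1.43.

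The next 3 alternatives were chosen after seeing the data, as were the ratios within single clusters and the interferon lists without a cluster. With sham cells of the other clusters named microglia at 14 dpi added, and the 3 dpi cells left as named, Cxcl10 was 3.17 and 2.12 and Cxcl16 0.85 and 1.64. Without the interferon-led cluster, Cxcl10 at 14 dpi was 3.83. Without the 5 cells with most UMIs of a gene in each library, Cxcr3 in NK cells reversed from −1.30 to 0.16, Ccl22 in migDC was −0.77, Cxcl9 in microglia at 14 over 3 dpi 6.57, and Cxcl10 in microglia 8.99 at 3 dpi, 7.63 at 14 dpi and 6.69 between the shams. Only 7 microglia had Cxcl9 at 3 dpi and 9 had Cxcl10 in sham. Leaving out 5 took most of these, so the higher ratios against them cannot show whether a difference rests on few cells.

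The share of genes at least 2-fold different moved with the UMI minimum. With 1 UMI it was 23.3% (3 dpi over sham, higher), 16.3% (14 dpi over sham, higher), 18.3% and 24.6% (14 over 3 dpi, higher and lower) and 13.1% (between the shams, higher) in microglia, 14.6% higher and 18.3% lower in αβ T cells, 16.7% lower in NK cells and 20.4% lower in B cells. With 200 UMIs it was 4.41% in microglia at 14 dpi over sham, 3.42% lower in αβ T cells, 3.42% lower in NK cells and 5.39% lower in B cells. Without thinning, the shares of cells with a UMI were 35.8% for Cxcl10 in microglia at 3 dpi, 51.2% for Ccl22 in migDC at 3 dpi, 60.2% for Cxcr6 in αβ T cells and 95.6% in γδ T cells at 14 dpi. At 2000 UMIs per cell they were 14.6% for Cxcl10 in microglia, and 40.2% and 84.3% for Cxcr6 in αβ and γδ T cells.

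Naming each cell on its own gave no value for migDC, and the strict limits gave none for NK cells. The cause of these moves was not tested. Depth limits, among other values, Cxcl9 in sham microglia (1 UMI), Ccr4 in all classes and Cxcr3 in NK cells at 3 dpi.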

Other observations

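Sham T and NK cells were too few to name a class in the ActD libraries but carried the receptors. In the ActD sham library, 15 cells of a cluster named T cell after injury held 33 Cxcr3 UMIs in 9 cells and 46 Cxcr6 UMIs in 9 cells, and 6 cells of the γδ T cell cluster held 30 Cxcr6 UMIs in 6 cells. In a clustering of the 2 shams alone, a T cell group held 42 cells of the standard protocol, which had 71.9 CPM of Cxcr3, 104 CPM of Cxcr6 and 173 CPM of Ccr7, and 26 cells of the ActD protocol, which had 227, 379 and 31.2 CPM. Of the latter, 6 lay in the γδ T cell cluster and 4 in the NK cell cluster of the ActD libraries, and 15 in the other T cell cluster. The make-up of the 42 cells was not traced in this way. B cells of the standard sham had 171 CPM of Ccr7 against 98.3 CPM with ActD.

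Each injured library held cells of both sexes, told apart by UMIs of Xist and of Y-linked genes. Of 42 combinations of a class, a library and a member, the interval of the female over male ratio lay above 0 in 15 and below 0 in 8. The share of all genes with such intervals was not computed, and the intervals cover counting error only. These counts are therefore not read as a trait of the members. Monocytes at 14 dpi differed in Cxcl10, with 193 CPM in 220 female cells (44 cells with a UMI, 1 of them with 93 UMIs) and 7.56 CPM in 243 male cells (12 with a UMI), a log2 ratio of 4.68 (3.96 to 5.50). At 3 dpi the same ratio was −0.06 (−0.48 to 0.36) in 21 female and 22 male monocytes. The 14 dpi monocytes joined the Ace cluster, at 162 CPM of Cxcl10, and the Vcan cluster, at 13.6 CPM. The sexes were not compared within each cluster, so sex and cluster cannot be told apart here. Microglia at 14 dpi had 69.3 and 67.8 CPM. Per the methods of the study, mice of both sexes were used, and how many stand behind the cells of each sex in a library is not given in the sources used here. The difference was not tested.

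At 14 dpi, 65 lymphocytes stayed without a name. Of these, 17 cells formed a group with 242 Cxcl10 UMIs in 16 cells, a level of 2525 CPM. Endothelial cells, which should be absent from a CD45+ sort, numbered 52 at 14 dpi and held 197 Cxcl10 UMIs in 7 cells.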
